A study of Mus musculus with 6 samples.

Results

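Endothelial cells line the blood and lymph vessels, and 32 genes that mark them were followed here in RNA-seq libraries of mouse lung fibroblasts sorted for the receptor PDGFRA, which binds platelet-derived growth factor. The genes were taken as a named list, chosen with earlier results of these data known, and all 32 were found among the 43430 Ensembl gene IDs of the count table. The cells came from male C57BL/6J mice aged 9 to 11 weeks that breathed room air, or 10% CO2 for 10 days (hypercapnia, a raised level of blood CO2). No genetic change is named for either group. Each library holds the sorted cells of 3 mice, from 9 mice per group, and there are 3 libraries per group. They are called M1, M2 and M3 (room air) and M4, M5 and M6 (hypercapnia), as in the columns of the table. The labels of the room air samples name PDGFRA and those of the hypercapnia samples name PDGFR without the letter. The pools are of separate mice as far as the labels say, so p-values measure the spread between pools, which averages over the mice inside each.

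Endothelial cells hold together through junction proteins such as VE-cadherin and claudin-5, and they read growth factors through the VEGF receptors, the angiopoietin receptor TEK and peptide receptors such as CALCRL. In the lung most of them lie in the alveolar capillaries, where a general capillary cell and a larger, thinner cell called the aerocyte are told apart. Arteries, veins and lymphatic vessels carry further markers. Fibroblasts do not form vessels, and the sort was made for a fibroblast receptor.

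Total counts per library ran from 8999780 to 10198336, and 3 counts correspond to between 0.294 and 0.333 CPM, the count scaled to library size. CPM values of genes, from here on, also include the TMM factors, which correct for composition. The sort label was checked on Pdgfra, at 2525 to 3701 CPM, and on Col1a1, a chain of type I collagen, at 4518 to 5455 CPM. Library M3 stood apart on the genes described here: it was the lowest of the 6 libraries for all 31 members that could be tested, while over all 13005 tested genes M3 was the lowest in 18.8%. M4 was the highest for 25 of the 31, against 16.2% of all tested genes. Group differences of the members are therefore also given without M3, and the counts, medians and called members without M3 and M4.

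All members together took 0.406%, 0.346% and 0.128% of the counts of the room air libraries (M1 to M3) and 0.685%, 0.567% and 0.446% of those of the hypercapnia libraries (M4 to M6). The 95% Wilson intervals, which cover counting error only, were 0.126% to 0.130% for M3 and 0.679% to 0.690% for M4. On this scale the hypercapnia libraries lay above the room air libraries, with M1 and M6 closest. With TMM scaling that order no longer held for this pair, at a summed 4304 CPM in M1 and 4255 CPM in M6. Fewer endothelial cells and less endothelial RNA per cell cannot be told apart in such bulk libraries.

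**Figure D1:**
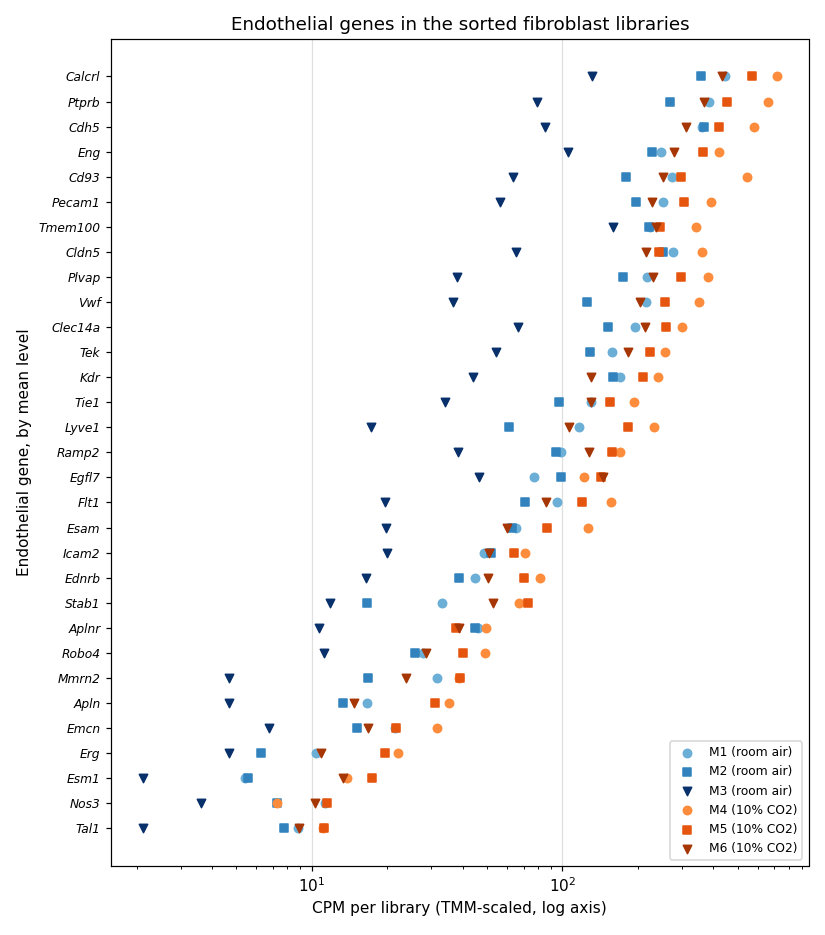
Level of the 31 tested endothelial genes in each library, ordered by mean level, in TMM-scaled CPM on a log axis; blue symbols are room air and orange symbols 10% CO2 libraries. M3 lies to the left in every row and M4 lies furthest right in 25 rows, while M1, M2 and M6 are mixed in many rows.

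The junction and adhesion genes were among the most abundant members. Cdh5 (VE-cadherin, the adherens junction protein of endothelium) stood at 359, 367 and 85.4 CPM in M1, M2 and M3 and at 579.7, 419.8 and 312 CPM in M4, M5 and M6. Pecam1 (CD31, an adhesion molecule of endothelial junctions, on chromosome 11 from 106654217 to 106750628) stood at 251, 197 and 56.6 CPM and at 390.0, 306 and 227 CPM. In both genes M6 lay below M1, so the groups overlapped. Cldn5, the main tight junction protein of endothelium, stood at 277, 253 and 65.1 CPM and at 361, 242 and 215 CPM, which puts M5 and M6 below both M1 and M2. Esam, an endothelial adhesion molecule, stood at 65.3, 63.0 and 19.8 CPM and at 126, 87.0 and 60.3 CPM. Icam2, a ligand of leukocyte integrins, stood at 48.8, 51.8 and 20.0 CPM and at 70.9, 64.1 and 50.8 CPM. None of these 5 genes separated the groups. Their log2 fold changes, hypercapnia minus room air, ran from 0.46 ± 0.41 (SE) for Cldn5 to 0.89 ± 0.38 for Esam, and none passed edgeR's quasi-likelihood test (adjusted p = 0.437 for Pecam1, 0.587 for Cdh5 and 0.75 for Cldn5, adjusted over all tested genes). Without M3 the log2 fold changes were 0.04 for Cldn5, 0.27 for Cdh5, 0.30 for Icam2, 0.46 for Pecam1 and 0.50 for Esam.

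The receptors of vascular growth factors followed the same order of libraries. Kdr (VEGF receptor 2, the main signalling receptor for VEGF-A) stood at 169, 159 and 43.8 CPM in the room air libraries and at 241, 209 and 130.2 CPM in those with CO2. Flt1 (VEGF receptor 1, which binds VEGF-A and placental growth factor) stood at 95.5, 70.7 and 19.6 CPM and at 156, 120.0 and 86.1 CPM. In both, M6 lay within the room air libraries. Tek (TIE2, the angiopoietin receptor) stood at 157, 129 and 54.1 CPM and at 256, 223 and 182 CPM, and Tie1, its partner receptor, at 129.9, 96.7 and 34.0 CPM and at 193, 154 and 130.3 CPM. Eng (endoglin, a co-receptor for BMP9 and BMP10) stood at 246, 227 and 106 CPM and at 421, 364 and 278 CPM. The groups did not overlap for Tek, Tie1 and Eng, although for Tie1 M1 and M6 were nearly equal. Ptprb (VE-PTP, a phosphatase that acts on TEK and VE-cadherin) stood at 384, 269.7 and 78.8 CPM and at 661, 455 and 366 CPM, with M6 below M1. Log2 fold changes of the 6 genes ran from 0.64 ± 0.40 for Kdr to 1.02 ± 0.43 for Ptprb, and none was called (edgeR adjusted p from 0.182 for Eng to 0.590 for Kdr). Without M3 they were 0.24 for Kdr, 0.49 for Tie1, 0.53 for Flt1, 0.58 for Eng, 0.59 for Ptprb and 0.62 for Tek.

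Peptide receptors and their partners differed widely in level, with means over the 6 libraries from 19.3 CPM for Apln to 442 CPM for Calcrl. Calcrl, the receptor for adrenomedullin and CGRP, was the most abundant member by CPM, at 445, 356 and 131 CPM in M1, M2 and M3 and at 716, 569.9 and 434 CPM in M4, M5 and M6. Ramp2, the accessory protein that makes CALCRL an adrenomedullin receptor, stood at 98.4, 93.8 and 38.2 CPM and at 170.4, 158 and 128 CPM, with no overlap between groups. Of the exonic bases of Ramp2, 33.4% overlap its neighbour Vps25, so its counts may be shared. Ednrb, an endothelin receptor that marks aerocytes, stood at 44.8, 38.6 and 16.5 CPM and at 81.7, 69.9 and 50.4 CPM, again without overlap. The log2 fold changes were 0.89 ± 0.35 for Calcrl, 0.99 ± 0.28 for Ramp2 and 1.02 ± 0.31 for Ednrb, with edgeR adjusted p of 0.330, 0.153 and 0.174. Aplnr, the apelin receptor of general capillary cells, had the smallest log2 fold change of all members (0.31 ± 0.40), and its ligand Apln, made by aerocytes and sprouting cells, had 1.23 ± 0.42 (adjusted p = 0.842 and 0.242). Without M3 the log2 fold change of Aplnr turned to -0.12, and those of Calcrl, Ramp2, Ednrb and Apln were 0.52, 0.66, 0.69 and 0.85.

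The C-type lectins Clec14a and Cd93 and their matrix ligand Mmrn2 also moved with the rest. Clec14a stood at 195, 152 and 66.4 CPM and at 301, 259 and 213 CPM, without overlap. Cd93 stood at 272, 179 and 63.5 CPM and at 544, 297 and 251 CPM, with M6 below M1. Their log2 fold changes were 0.90 ± 0.30 and 1.09 ± 0.43 (edgeR adjusted p = 0.231 and 0.330), and that of Mmrn2 was 0.95 ± 0.48. With M3 left out the values were 0.57, 0.69 and 0.49.

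Vwf, the von Willebrand factor stored in endothelial granules, stood at 216, 125 and 36.6 CPM and at 349.6, 256 and 204 CPM. Plvap, the protein of the diaphragms that span endothelial pores and caveolae, stood at 218, 175 and 38.1 CPM and at 382, 298 and 231 CPM. Plvap separated the groups and Vwf did not. Egfl7, a secreted protein of endothelium, stood at 77.0, 98.6 and 46.6 CPM and at 121, 142 and 145 CPM, and it was the member whose highest library was M6. Of the exonic bases of Egfl7, 11.2% overlap other gene models. Tmem100, a membrane protein of the BMP and ALK1 pathway in endothelium, varied less than the others, at 223, 222 and 159 CPM and at 340.0, 245 and 236 CPM. Log2 fold changes were 1.10 ± 0.46 for Vwf, 1.08 ± 0.46 for Plvap, 0.88 ± 0.22 for Egfl7 and 0.45 ± 0.17 for Tmem100 (edgeR adjusted p = 0.366, 0.377, 0.100 and 0.318). Without M3 these were 0.66, 0.63, 0.63 and 0.30. Egfl7 was called by DESeq2 (0.87, adjusted p = 0.00234) and by edgeR without M3 and M4 (0.69 ± 0.15, adjusted p = 0.0254).

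By edgeR's test 2 of the 31 tested members were called, both higher, where 1.22% of all tested genes were called, 0.523% higher and 0.700% lower. Groups did not overlap, with hypercapnia higher, in 14 of the 31, against 9.25% of all tested genes, and hypercapnia was lower without overlap in none of the 31, against 8.76%. At an unadjusted p under 0.05 there were 21 members, against 6.54% of all tested genes that were higher at that level. Log2 fold changes of the 31 ran from 0.31 to 1.77, all above 0; the median was 0.89, where that over all tested genes was 0.01. The members' median was 0.55 without M3 and 0.31 without M3 and M4, with 30 and 28 of the 31 members positive. The members share the libraries' order, so these counts are not 31 separate observations.

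The called members were Stab1 and Esm1. Stab1 (stabilin-1, a scavenger receptor of sinusoidal endothelium and of macrophages, on chromosome 14 from 31139013 to 31168641) stood at 33.1, 16.6 and 11.9 CPM in M1, M2 and M3 and at 66.9, 72.9 and 53.0 CPM in M4, M5 and M6. It rose from 20.5 ± 11.2 to 64.3 ± 10.2 CPM (SD, n = 3), a log2 fold change of 1.65 ± 0.31 (edgeR adjusted p = 0.0341). Esm1 (endocan, a proteoglycan secreted by sprouting endothelium, on chromosome 13 from 113209659 to 113218098) stood at 5.42, 5.56 and 2.12 CPM and at 13.8, 17.4 and 13.4 CPM. It rose from 4.37 ± 1.95 to 14.8 ± 2.21 CPM, a log2 fold change of 1.77 ± 0.35 (edgeR adjusted p = 0.0442). In both, all hypercapnia libraries lay above all room air libraries, and M4 was not the highest. Without M3 both remained called, with log2 fold changes of 1.38 and 1.43 and adjusted p of 0.0297 and 0.0393. Without M3 and M4 both were called as well, at 1.33 and 1.46 (adjusted p = 0.0168 and 0.0264). Without M2, M4, M5 or M6 the call of Stab1 was lost (0.222, 0.0539, 0.155 and 0.0872), and without M1, M2, M4, M5 or M6 that of Esm1 (0.0598, 0.142, 0.0654, 0.199 and 0.134). With robust dispersion Stab1 was also lost (0.133).

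Lyve1, a hyaluronan receptor of lymphatic vessels and of some lung capillaries and macrophages, had the widest spread of all members. It stood at 117, 61.1 and 17.2 CPM in M1, M2 and M3 and at 231, 183 and 107 CPM in the CO2 libraries, so that M4 was 13.5 times M3. Its log2 fold change was 1.42 ± 0.51 (edgeR adjusted p = 0.265), or 0.97 with M3 left out. Over the 31 members the ratio of M4 to M3 ran from 2.02 for Nos3, the endothelial nitric oxide synthase, to that of Lyve1. The median ratio was 5.49, where the median over 12813 tested genes with no library at 0 was 0.991 and 8.09% of those genes exceeded 2.

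Members under a mean of 50 CPM included both transcription factors that passed the filter. Erg, an ETS family factor of endothelial identity, ran from 4.66 CPM in M3 to 22.1 CPM in M4 (1.30 ± 0.35, edgeR adjusted p = 0.124), and Tal1, a factor of blood and endothelial precursors, from 2.12 CPM in M3 to 11.2 CPM in M5 (0.74 ± 0.43). DESeq2 called Erg (adjusted p = 0.0114). Emcn (endomucin, a sialomucin of capillaries and veins, 6.78 to 31.5 CPM) and Robo4, a receptor that stabilises vessels (11.2 to 49.0 CPM), had log2 fold changes of 0.69 and 0.87. Without M3 the values of Erg, Tal1, Emcn and Robo4 were 1.07, 0.32, 0.34 and 0.55. Nos3 ran from 3.60 to 11.5 CPM (0.40 ± 0.39, or 0.07 without M3), with 32.3% of its exonic bases shared with Atg9b and an unnamed gene model.

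Prox1 was the only member below the filter. It encodes the transcription factor that sets lymphatic identity and had 28 counts in all 6 libraries together, 14 of them in M5.

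Per kilobase of exon the order of the members differed from that by CPM. Cldn5 led at 166 CPM per kb over the 6 libraries, followed by Tmem100 (134), Plvap (113), Calcrl (90.5), Cdh5 (84.2) and Eng (67.6). Prox1 was lowest at 0.0567 CPM per kb. On this scale Pdgfra stood at 325 CPM per kb. The level of Cdh5 per kb was 23.15%, 23.95% and 6.14% of that of Pdgfra in the room air libraries, and 41.2%, 33.2% and 29.5% in the hypercapnia libraries. The level of Pecam1 per kb was 10.9%, 8.68% and 2.745% of it, and 18.7%, 16.4% and 14.45%. Both ratios need no scaling between libraries, and on both the groups did not overlap. Pdgfra itself had a log2 fold change of -0.26 ± 0.11 (edgeR adjusted p = 0.383), which enters these ratios.

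**Figure D2:**
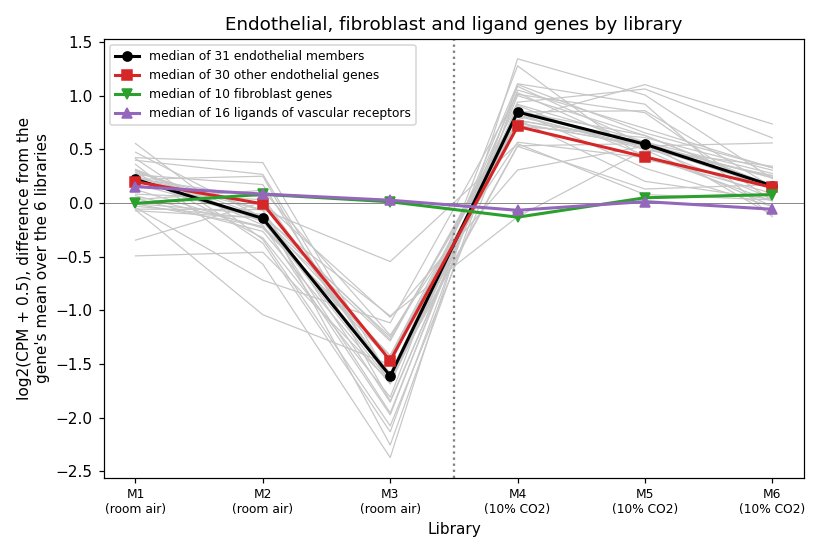
Level of each tested endothelial member (thin grey lines) as log2(CPM + 0.5) minus its own mean over the 6 libraries, with the medians of the members, of 30 other endothelial genes, of 10 fibroblast genes and of 16 genes listed as ligands of vascular receptors (angiopoietin-like genes included). The medians of both endothelial sets fall to -1.61 and -1.47 in M3 and reach 0.85 and 0.71 in M4, while those of the fibroblast genes and the ligands stay between -0.13 and 0.15.

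A second list, 30 pan-endothelial genes that are not members, gave the same order of libraries. This list too was chosen with earlier results of these data known, so its order is a description and not a separate test. The median of the 30 stood at 0.20, -0.01 and -1.47 for M1, M2 and M3 and at 0.71, 0.43 and 0.15 for the libraries with CO2, on the log2 scale relative to each gene's mean. M3 was the lowest library for 27 of the 30, and log2 fold changes were above 0 for 28; their median was 0.65, or 0.32 without M3 and 0.14 without M3 and M4. Ushbp1, a little-studied endothelial gene chosen after its values were seen, was the 1 gene of this list that was called. It rose by 1.09 ± 0.22 (edgeR adjusted p = 0.0477), a call lost without M2 (0.206), M4 (0.0906), M5 (0.172) or M6 (0.149), by RLE factors (0.0508) or when the covariate described next was added (0.0816). Thbd (thrombomodulin, a receptor of thrombin) was an exception in level and direction, at 1204 to 1817 CPM and a log2 fold change of -0.30.

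The mean log2 level of these 30 genes was then used as a covariate, to ask which members differed between groups beyond the level they share. This fit leaves 3 residual degrees of freedom. The covariate is itself higher in M4 and M5 than in any room air library, while M6 (5.15) lies between M2 (5.02) and M1 (5.22). The median log2 fold change of the members was then 0.15, with 24 of 31 positive. Stab1 was still called (1.15 ± 0.24, edgeR adjusted p = 0.0337). Esm1 had 1.25 ± 0.35 (adjusted p = 0.0979), and the next values were Erg with 0.76 ± 0.35 and Egfl7 with 0.55 ± 0.19, neither called. At the other end stood Aplnr (-0.47 ± 0.19) and Cldn5 (-0.39 ± 0.13, adjusted p = 0.160), and Pecam1 was near 0 (0.03 ± 0.12).

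**Figure D3:**
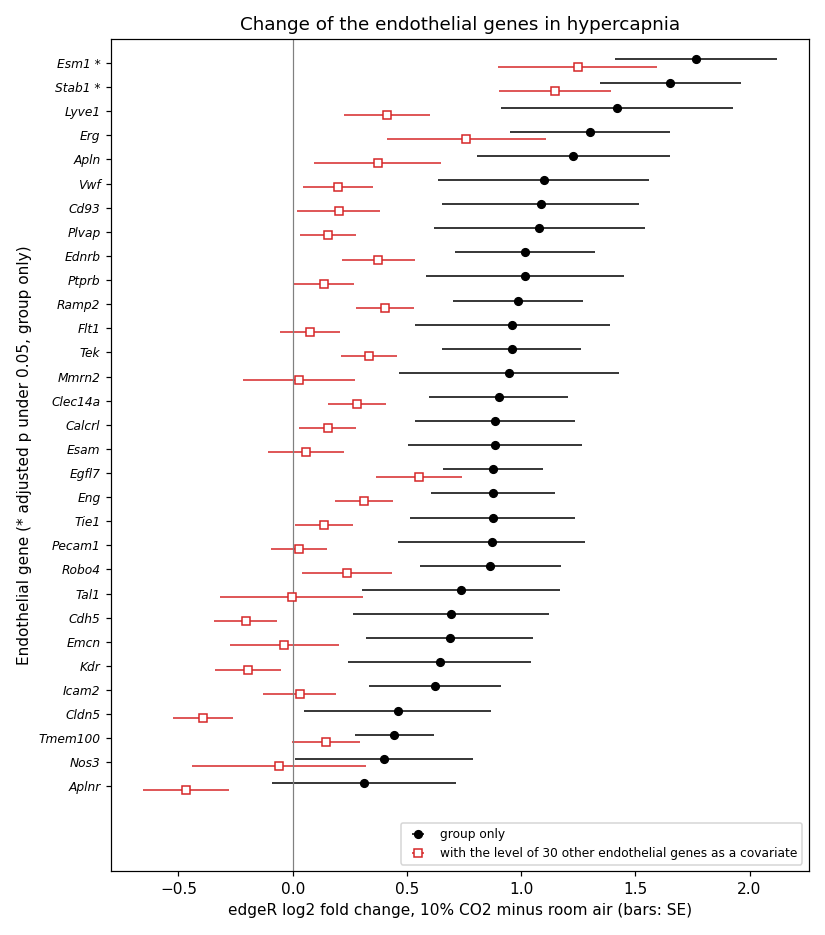
edgeR log2 fold change of the 31 tested members, 10% CO2 minus room air, with bars of 1 SE, in the fit with the group only (filled circles) and with the level of 30 other endothelial genes as a covariate (open squares). In the first fit all points lie above 0 and the bar of Aplnr crosses it; in the second most points move close to 0, with Esm1 and Stab1 furthest to the right.

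As shares of all member counts, which need no scaling, Stab1 took 0.769%, 0.468% and 0.943% in the room air libraries and 0.953%, 1.34% and 1.25% in the hypercapnia libraries. Esm1 took 0.126%, 0.157% and 0.168%, and then 0.196%, 0.320% and 0.314%. Cldn5 took 6.44%, 7.14% and 5.18%, and then 5.14%, 4.46% and 5.06%. Stab1, Esm1 and Plvap were the 3 members whose share was higher in every hypercapnia library than in any room air library. Cldn5 was the 1 whose share was lower, and the other 28 overlapped. By CPM, 9.25% of all tested genes were higher without overlap and 8.76% lower. The 3 of 32 members are near the first of these, so the separations are not a result about these members. M3 and M4 nearly touched for Stab1 and for Cldn5, so those separations are narrow. With 3 libraries against 3 an exact two-sided permutation test cannot go below 0.10, and none was run on the shares.

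The promoters of the members were searched for short motifs, as a description that does not bear on why the members moved together. RefSeq start sites (GRCm38.p6) were matched for 18 members, with 24 promoters in all, and were not matched for Pecam1, Cdh5, Ramp2, Vwf, Tmem100, Lyve1, Esam, Ptprb, Mmrn2, Plvap, Aplnr, Cd93, Icam2 and Nos3. The search covered the 250 bases before the start, on both strands. For Prox1 and Ednrb the bases after the start matched no annotated transcript of the gene, so their windows are less certain. AGGAAG, the core bound by ETS factors such as ERG, was found in 11 of the 24 promoters, of 10 of the 18 genes, and in 29.5% of all 32851 promoters. AACAGGAA, a FOX:ETS composite that can overlap the ETS core, was found in 3 of the 24 (2.25% of all). The SOX core AACAAT was found in 4 (9.42% of all) and the GATA core AGATAA in 2 (9.99% of all). A match is a description of the letters and not evidence of binding. The sequences below are those of the called members Stab1 (chr14:31168642-31168891, minus strand) and Esm1 (chr13:113209409-113209658, plus strand), and of the 4 most abundant members with a single RefSeq start, Calcrl (chr2:84425267-84425516, minus strand), Eng (chr2:32646345-32646594, plus strand), Cldn5 (chr16:18776597-18776846, plus strand) and Clec14a (chr12:58269259-58269508, minus strand). Each is written 5′ to 3′ on the strand of its gene and ends at the base before the start, with ETS cores or their reverse complement in capitals.
Stab1: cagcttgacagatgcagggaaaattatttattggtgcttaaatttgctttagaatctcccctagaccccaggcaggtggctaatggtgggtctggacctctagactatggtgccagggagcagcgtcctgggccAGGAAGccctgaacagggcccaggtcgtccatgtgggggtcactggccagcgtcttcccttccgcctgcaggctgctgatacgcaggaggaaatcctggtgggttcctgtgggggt
Esm1: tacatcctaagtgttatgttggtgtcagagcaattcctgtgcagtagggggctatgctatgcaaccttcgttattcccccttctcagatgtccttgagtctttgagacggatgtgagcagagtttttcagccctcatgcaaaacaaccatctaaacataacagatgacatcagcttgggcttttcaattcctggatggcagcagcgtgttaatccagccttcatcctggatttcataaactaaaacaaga
Calcrl: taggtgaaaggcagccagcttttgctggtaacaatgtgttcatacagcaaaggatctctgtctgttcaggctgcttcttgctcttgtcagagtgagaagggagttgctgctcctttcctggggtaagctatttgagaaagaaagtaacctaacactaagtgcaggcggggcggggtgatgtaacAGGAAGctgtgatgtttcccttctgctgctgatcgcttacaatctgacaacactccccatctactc
Eng: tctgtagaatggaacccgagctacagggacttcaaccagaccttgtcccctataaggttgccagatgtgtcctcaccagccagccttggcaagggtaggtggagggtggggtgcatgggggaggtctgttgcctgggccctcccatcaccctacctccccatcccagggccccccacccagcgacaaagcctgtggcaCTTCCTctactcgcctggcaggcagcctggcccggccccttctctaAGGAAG
Cldn5: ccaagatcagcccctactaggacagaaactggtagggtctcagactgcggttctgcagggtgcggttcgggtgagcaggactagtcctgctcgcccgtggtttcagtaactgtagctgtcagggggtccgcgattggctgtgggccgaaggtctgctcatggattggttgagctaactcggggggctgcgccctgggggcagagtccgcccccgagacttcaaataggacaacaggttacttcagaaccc
Clec14a: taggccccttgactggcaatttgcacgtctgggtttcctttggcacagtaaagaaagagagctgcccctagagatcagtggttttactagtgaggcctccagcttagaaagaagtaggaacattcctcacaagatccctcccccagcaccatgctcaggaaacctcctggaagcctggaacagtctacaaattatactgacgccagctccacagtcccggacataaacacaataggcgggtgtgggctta

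Of these 6, Eng held 2 ETS cores, Stab1 and Calcrl 1 each, and Esm1, Cldn5 and Clec14a none in this window. The core of Calcrl is part of its FOX:ETS match.

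Markers of vessel types were read from lists of 10 genes each, chosen with earlier results of these data known. Among all tested genes 0.523% were called higher and 0.700% lower. The general capillary list holds the members Aplnr, Cd93, Plvap, Tek and Ptprb, so part of its order was set by values already described. Over the list, 9 of 10 genes were lowest in M3, 9 had log2 fold changes above 0, and the median was 0.99, or 0.60 without M3. Of its genes that are not members, Gpihbp1, Kit, Sema3c and Hpgd were lowest in M3 with log2 fold changes above 0. Lpl was neither lowest in M3 nor higher with CO2. Hpgd, a prostaglandin-degrading enzyme, was at 107 ± 48.7 CPM (SD, n = 3) with room air and 277 ± 68.4 CPM with CO2 (1.37 ± 0.31, edgeR adjusted p = 0.0752). Sema3c, a secreted semaphorin, had 0.46. Lpl (lipoprotein lipase, also made by lipid-bearing fibroblasts) was the 1 gene called, and it fell by 0.81 on the log2 scale (adjusted p = 0.0181), a call lost without M2 (0.0574), M5 (0.0795) or M6 (0.0902).

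The genes of the aerocyte list did not all follow 1 order of libraries: 6 of 10 were lowest in M3, and 7 had log2 fold changes above 0. The median was 0.40, or 0.23 without M3. Its 4 most abundant genes apart from Prx were Tbx2, a transcription factor, at 1086 to 1260 CPM, Kitl, the ligand of the receptor KIT, at 182 to 280 CPM, Fibin at 113 to 144 CPM and Sirpa at 64.2 to 85.6 CPM. Their log2 fold changes were -0.05, 0.26, 0.07 and -0.09, and M3 was the highest library for Tbx2. Which of the sorted cells carried these 4 transcripts was not tested. Ednrb and Apln are themselves members. Prx (periaxin) followed the members, as did the aerocyte carbonic anhydrase Car4, named after its values were seen, at 33.6 ± 15.2 and 66.2 ± 10.7 CPM (0.98 ± 0.30, edgeR adjusted p = 0.175). Ptp4a3 was lowest in M3 as well, and its groups did not overlap (0.55 ± 0.14, edgeR adjusted p = 0.0958). Chst1, a sulfotransferase, was lowest in M6 (-0.14). None of the 10 was called.

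Among arterial markers Sema3g, a semaphorin, ran from 22.9 CPM in M3 to 172 CPM in M4 and Efnb2, an ephrin of arteries, from 14.1 to 138 CPM, and neither was called. Cxcl12, a chemokine, had 0.28. Gja5 (connexin 40) took another course: it stood at 232 ± 40.1 CPM with room air and 87.3 ± 9.34 CPM with CO2, fell by 1.41 on the log2 scale (edgeR adjusted p = 0.00224), and was not lowest in M3. The Notch ligand Dll4 and the Notch target Hey1, which mark arteries, rose from 21.3 ± 6.44 to 53.4 ± 3.74 CPM and from 29.5 ± 8.37 to 59.1 ± 5.02 CPM (adjusted p = 0.0159 and 0.0442). The call of Dll4 was lost without M2 (0.109), M5 (0.0743) or M6 (0.0793), and that of Hey1 without M2 (0.175), M4 (0.0872), M5 (0.157) or M6 (0.134), or when the endothelial covariate was added (0.0699). The list's median was 0.90, or 0.53 without M3, with 9 of 10 positive. Called genes were 2 higher and 1 lower, where 0.523% and 0.700% of all tested genes were called in these directions.

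Venous markers were present at mixed levels, and 7 of 10 passed the filter with none called. Slc6a2, the noradrenaline transporter of lung veins, ran from 21.4 CPM in M3 to 118 CPM in M4 (0.98), and Ephb4, the receptor of ephrin-B2, from 96.4 to 178 CPM (0.43). Prss23, a protease, ran from 16.4 to 54.3 CPM (0.72), and an antisense gene overlaps 22.9% of its exonic sequence. Nr2f2 (COUP-TFII, a transcription factor of veins and of mesenchyme) stood at 366 to 471 CPM with a log2 fold change of -0.02. Selp and Sele, the selectins of activated venules, had 32 and 11 counts in all libraries together, and 14.1% of the exonic bases of Selp are shared with other gene models. The list's median was 0.72, or 0.50 without M3.

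The lymphatic list was mostly of low counts: 7 of 10 passed the filter, all with log2 fold changes above 0, 4 lowest in M3 and 5 highest in M4. Besides Prox1, the lymphatic chemokine Ccl21a had 78 counts and Mmrn1 123 counts over the 6 libraries, and M3 had 11 counts of each, close to M1 and M2 for Mmrn1 and between them for Ccl21a. Mmrn1 was the 1 gene of the list whose groups did not overlap, at 1.24 ± 0.067 and 3.07 ± 1.44 CPM (1.30 ± 0.56, edgeR adjusted p = 0.384). Over all tested genes 9.25% were higher without overlap. Foxc2, a factor of lymphatic valves, ran from 2.65 to 4.40 CPM. Flt4 (VEGF receptor 3), which capillaries also carry, ran from 3.50 CPM in M3 to 33.0 CPM in M4, as the members did. Pdpn (podoplanin), also made by fibroblasts and alveolar epithelium, ran from 28.7 to 57.1 CPM with 0.60. None of the 7 tested genes was called, and the median was 0.62, or 0.74 without M3.

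Stab1 and Lyve1 are also markers of sinusoids and macrophages. Stab2, the sinusoidal relative of Stab1, had 62 counts over the 6 libraries and was highest in M6. Of 12 macrophage markers Adgre1 (F4/80), Marco and Siglecf had 0 counts in all libraries, which allows up to 3 counts per library, and only Cd68 and Lyz2 passed the filter. The summed macrophage level ran from 12.2 to 56.2 CPM over M1 to M3 and from 25.8 to 62.3 CPM over M4 to M6, most of it Lyz2, which alveolar type 2 cells make too. M3 was lowest here as well, but M4, the highest library for most members, was second lowest. Platelet markers summed to between 3.53 and 8.15 CPM, with Pf4 at 0 counts in all libraries but M5 (5 counts). The leukocyte list, Ptprc included, summed to at most 0.707 CPM and the red cell list to at most 1.69 CPM.

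**Figure D4:**
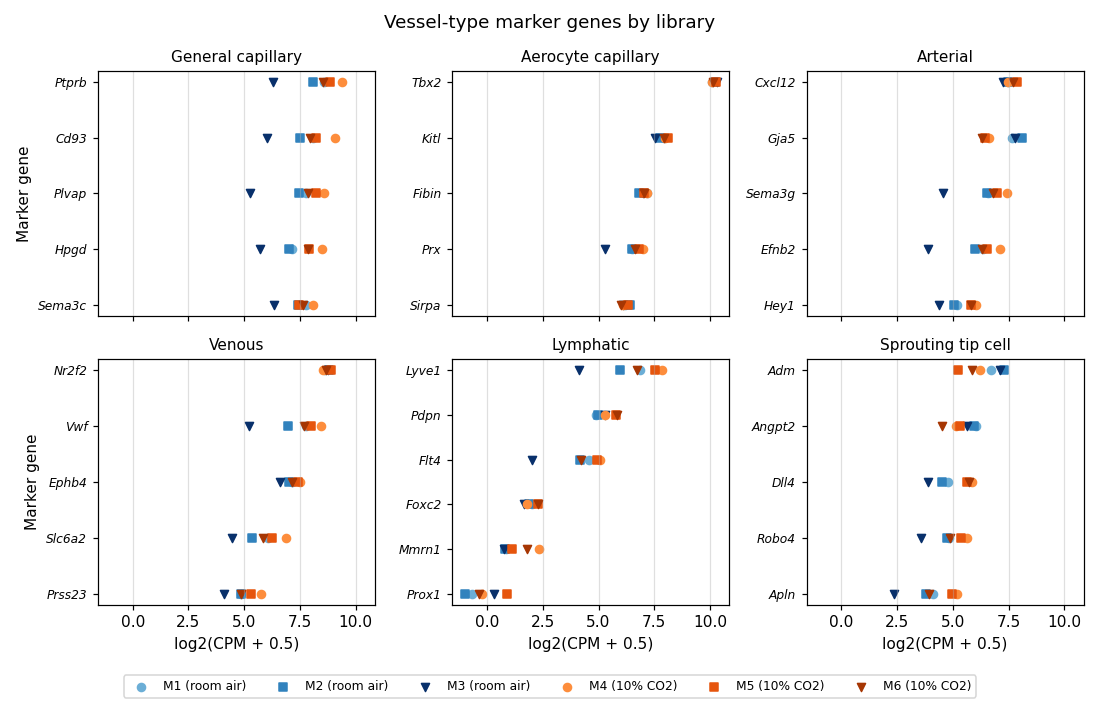
The 5 most abundant markers of each vessel type, and Prox1, as log2(CPM + 0.5) in each library; blue is room air and orange 10% CO2. General capillary genes, Sema3g, Efnb2, Vwf, Slc6a2, Lyve1 and Flt4 are lowest in M3, while Tbx2, Nr2f2, Gja5 and Adm are not, and Prox1 and Mmrn1 lie near the lower end.

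Genes of sprouting tip cells were not uniform. Of 10, Esm1, Dll4 and the chemokine receptor Cxcr4 were called higher and Adm lower. Over all tested genes 0.523% were called higher and 0.700% lower. The list was chosen with earlier results of these data known, so this count is a description and not a test. Its median was 0.59, or 0.43 without M3. Cxcr4 rose by 1.68 ± 0.27 (edgeR adjusted p = 0.0178, lost without M2 at 0.120, M5 at 0.108 or M6 at 0.0902) and was not distinctly low in M3 (7.19, 4.93 and 4.77 CPM, then 13.8, 20.2 and 19.8 CPM). Angpt2 (angiopoietin-2, a ligand of TEK) stood at 65.0, 60.7 and 48.9 CPM and at 34.6, 40.0 and 22.4 CPM (-0.85, adjusted p = 0.0903).

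A list of ligands of the vascular receptors was measured in the same libraries, and none of the 16 genes that passed the filter was called higher. The list also holds the angiopoietin-like genes Angptl1, Angptl2 and Angptl4, which are not ligands of the receptors named above. Vegfa, the ligand of KDR and FLT1, stood at 377, 412 and 341 CPM in M1, M2 and M3 and at 334, 294 and 359.6 CPM in the CO2 libraries (-0.19, edgeR adjusted p = 0.595). Angpt1, the activating ligand of TEK, stood at 427, 422 and 409 CPM and at 336, 350.5 and 335 CPM (-0.30, adjusted p = 0.219), and 14.2% of its exonic bases are shared with another gene model. Adm (adrenomedullin, the ligand of CALCRL with RAMP2) stood at 105, 155 and 139 CPM and at 74.7, 36.9 and 57.4 CPM, without overlap. It fell by 1.24 on the log2 scale (SE 0.23, adjusted p = 0.0329), a call lost without M2 (0.201), M5 (0.0963) or M6 (0.134) and with robust dispersion (0.101). Angptl4, an inhibitor of lipoprotein lipase, fell from 319 ± 54.9 to 143 ± 19.5 CPM (-1.16, adjusted p = 0.00643), which was lost without M5 (0.0558). Edn1, the ligand of EDNRB, is made by endothelium and ran from 4.98 CPM in M3 to 43.5 CPM in M4 (adjusted p = 0.313). Over the 16 genes of this list, the angiopoietin-like genes included, the median log2 fold change was -0.11, and M3 was lowest for 4.

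Markers of other cells that a sort could hold were set beside these values. The summed level of 10 epithelial markers ran from 437 to 724 CPM over the room air libraries and from 426 to 550.3 CPM over the others, and none was called. Of the 10, 5 were lowest in M3, and M4 was the highest library for none. Sftpc stood at 125, 114 and 48.9 CPM and at 66.9, 168 and 189 CPM. Scgb1a1, the most abundant at a mean of 293 CPM, was not lowest in M3. The median ratio of M1 to M3 was 2.44 over the 9 epithelial markers with no library at 0. Over all such tested genes it was 1.002. For M4 to M3 the median ratio of these markers was 1.44, with 22.2% over 2, and their summed level was lowest in M5 (426 CPM) and not in M3 (437 CPM). Values in M3 below those in M1 were thus not confined to endothelial genes. Pericyte markers summed to 369 to 400.3 CPM and 443 to 531 CPM, where Rgs5 and Higd1b were at or under 4.59 CPM and Kcnj8 and Abcc9 were not lowest in M3. Kcnj8 (0.73 ± 0.17, edgeR adjusted p = 0.0841), Abcc9 (0.54 ± 0.12, adjusted p = 0.0682) and Notch3 (0.46 ± 0.22) were higher in every hypercapnia library than in any room air library. These were 3 of the 7 tested pericyte markers, and 9.25% of all tested genes were higher without overlap. Postn (periostin) did follow the members' order in room air, at 39.1, 21.3 and 7.84 CPM, and had a log2 fold change of 0.26. None of the 7 tested pericyte markers was called. Of the mesothelial markers, Upk3b and Lrrn4 were highest in M4, at 26.4 and 14.7 CPM, against 10.5 and 3.67 CPM or less in room air. Upk1b was by far the most abundant of that list, at a mean of 181 CPM over the 6 libraries against 10.3 CPM for Upk3b. Whether mesothelial cells made it here was not tested. It fell from 226 ± 28.6 to 136 ± 15.4 CPM (-0.73 ± 0.13, edgeR adjusted p = 0.0317) and was highest in M3. That call was lost with each library left out in turn (0.0539 to 0.164) and when the endothelial covariate was added (0.0584). Smooth muscle markers summed to 271 to 314 CPM and 172 to 259 CPM. The 10 fibroblast markers had a median log2 fold change of -0.04, with members on both sides. Npnt (nephronectin) was called and fell by 0.44 (adjusted p = 0.0474), which was lost without M1 (0.101), M2 (0.260), M3 (0.0540), M5 (0.257) or M6 (0.155) and by RLE factors (0.0521). Tcf21 was lower without overlap (-0.44, adjusted p = 0.101), and Pi16 had 0.69 (adjusted p = 0.186). The part of any of these cells in the endothelial values was not tested.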

How the data were processed

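The authors deposited raw HTSeq read counts per Ensembl gene ID for 6 libraries, whole numbers with no normalization. TopHat2 2.1.0, HTSeq, bcl2fastq 2.17.1.14, FastQC and the mm10 build are named in the submitters' processing notes, and neither annotation release nor strand setting is stated there. Reads of overlapping genes may be mixed, and overlaps of more than 10% of a named gene's exonic bases are stated. Columns carry the group and a number that differs from the sample titles, so each was assigned to its group only. Gene names, positions and exon lengths came from GENCODE M21, on the same build, which named 42462 of the IDs.

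The test was edgeR 4.0.16's quasi-likelihood F-test (R 4.3.3), run on the 6 libraries with a single group term, TMM factors of 0.943 to 1.05, edgeR's default filter (minimum count 10, 13005 genes kept) and Benjamini-Hochberg adjustment over all tested genes. Genes with adjusted p under 0.05 are called, and rose or fell. The SE is the log2 fold change divided by the square root of F. The test was also run on simulated counts in which each gene varied on its own. That check does not cover an order of libraries shared by many genes, as seen in the members. The members, lists and naming rule were chosen with earlier results of these data known. That rule names all members, gives per-library values for those with a mean of at least 50 CPM or called, and names the 5 most abundant genes of each vessel list. Outside those 5, the text also names Lpl and Cxcr4, which were called, and Gpihbp1, Kit, Car4, Ptp4a3, Chst1, Selp, Sele and Ccl21a. Single genes of the other lists are named beyond the rule as well. Gene list medians are descriptions. DESeq2 1.42.0, limma-voom 3.58.1, other scalings and filters, robust dispersion, the endothelial covariate and leaving out each library were the alternatives. Leaving out M3 and M4 together was chosen after seeing the data.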

Additional observations from a re-analysis of the deposited data

How the results depend on the processing

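The 31 members kept a positive log2 fold change with RLE factors, without composition factors, without a filter, with the stricter filter, by DESeq2, by limma-voom, with robust dispersion and without any 1 library other than M3. With 1 library left out Aplnr ran from -0.12 (without M3) to 0.597. Without M3 and M4, Cdh5 (-0.0078), Cldn5 (-0.23) and Aplnr (-0.27) turned. With the endothelial covariate, Cdh5 (-0.20), Kdr (-0.20), Cldn5 (-0.39), Emcn (-0.037), Aplnr (-0.47), Tal1 (-0.0052) and Nos3 (-0.061) turned, the members' median was 0.15 and that of the 30 other endothelial genes, which make up the covariate, turned to -0.037. Members called, all higher, numbered 2 in the reported fit, 1 with the covariate, 1 with robust dispersion, 4 by DESeq2, 3 without M3 and M4 and 27 with no filter, and between 0 and 2 with 1 library left out. With no filter the members' median log2 fold change was 0.90, close to the 0.89 of the reported fit. The SEs were smaller there, 0.14 against 0.41 for Pecam1 and 0.14 against 0.51 for Lyve1. The 27 calls thus went with smaller SEs and not with larger changes, and the cause was not tested. Over all genes 159 were called, 435 by DESeq2, 756 with no filter, 255 with robust dispersion, 388 without M3 and M4, and 24 to 148 with 1 library left out. No paired analysis was possible because the columns share no replicate numbers across groups. At 28 counts in all, a difference in Prox1 was not detectable at this depth.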
